A study of Homo sapiens with 12 samples.

Results

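The genes described here encode the core proteins of the spliceosome's small nuclear ribonucleoprotein particles (snRNPs) and their closest partners. Members were the protein-coding rows of the count table with a symbol of the SNRP, SNRNP, SF3A, SF3B or PRPF families, or LSM2 to LSM8, together with U2AF1, U2AF2, SF1, EFTUD2, CDC5L and PLRG1. This name rule, which uses no measured value, found 53 genes among 32010 in the table, of which 18080 were protein coding. All 53 passed the filter on low counts and were tested.

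Introns are removed from pre-mRNA by the spliceosome, which is assembled from RNA-protein particles named after their small nuclear RNA. U1 recognises the 5′ splice site and U2 the branch site, and the tri-snRNP of U4, U6 and U5 then joins and is rearranged into the catalytic core. The U1, U2, U4 and U5 RNAs each carry a ring of Sm proteins, U6 carries a related ring of LSM proteins, and a minor spliceosome with U11 and U12 removes a rare class of introns.

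All cells were HEK293 Flp-In, a human embryonic kidney line made to accept a single transgene, and each of 4 groups had 3 libraries of polyadenylated RNA. ΔE8 cells received a single siRNA against TAF5 and expressed an siRNA-resistant, doxycycline-induced TAF5 that lacks exon 8. FL cells received the same siRNA and expressed full-length siRNA-resistant TAF5. siTAF5 cells received the TAF5 siRNA, and siNT cells a non-targeting siRNA. TAF5 is a subunit of TFIID, the factor that binds core promoters and starts assembly of the RNA polymerase II machinery. Doxycycline was given 24 h after the siRNA, for 48 h, and the labels list siRNA with doxycycline as the treatment of all 12 libraries. The doses listed for ΔE8 and FL differ, so dose and TAF5 form cannot be told apart. The line in which the siTAF5 and siNT cells were grown is not stated. The labels do not say whether the 3 libraries of a group came from different cultures, and p-values below therefore measure the spread between these libraries, which may be technical.

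Library totals ran from 41.8 to 62.5 M counts. Levels are given in CPM, counts scaled to a common library total. TAF5 itself stood at 87.61, 87.49 and 88.86 CPM in ΔE8, 102.6, 105.6 and 107.4 in FL, 6.131, 7.354 and 6.685 in siTAF5, and 39.17, 40.5 and 40.21 in siNT. The knockdown was thus 5.92-fold, and both add-back groups stood above siNT. All 6 genes listed as known in HEK293 had a mean above 1 CPM in every group, and their summed level was 793 to 830 CPM in ΔE8, 660 to 700 in FL, 1052 to 1073 in siTAF5 and 844 to 876 in siNT. Of the listed blood, keratinocyte and hepatocyte markers 0 did so, and of 5 fibroblast genes COL1A1 alone did, with summed fibroblast levels of 7.09 to 7.75 CPM in ΔE8, 6.85 to 7.96 in FL, 8.09 to 9.08 in siTAF5 and 13.6 to 14 in siNT. The part of these differences in the results below was not tested.

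The core promoters of 8 members that changed are shown because TFIID acts there. The 8 were chosen with their values known, not as the largest changes, so nothing is read from what their windows share. Each window runs from 100 bases before to 10 bases after the RefSeq start on GRCh38.p14, on the gene's strand, 5′ to 3′. Capitals mark CCAAT boxes (CCAAT), GC boxes (GGGCGG) and ETS sites (CCGGAAG), searched on both strands. SNRPA1, LSM4, SNRPF and PRPF8 were lower in siTAF5 than in siNT.
SNRPA1 (chr15:101295239-101295348, minus strand): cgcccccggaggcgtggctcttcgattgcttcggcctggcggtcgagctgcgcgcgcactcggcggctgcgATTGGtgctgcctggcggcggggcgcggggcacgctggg
LSM4 (chr19:18323067-18323176, minus strand): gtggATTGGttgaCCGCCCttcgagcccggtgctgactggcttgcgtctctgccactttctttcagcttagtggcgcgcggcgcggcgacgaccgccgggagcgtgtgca
SNRPF (chr12:95858852-95858961, plus strand): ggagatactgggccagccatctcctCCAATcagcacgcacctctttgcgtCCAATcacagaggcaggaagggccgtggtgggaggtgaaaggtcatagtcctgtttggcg
PRPF8 (chr17:1684858-1684967, minus strand): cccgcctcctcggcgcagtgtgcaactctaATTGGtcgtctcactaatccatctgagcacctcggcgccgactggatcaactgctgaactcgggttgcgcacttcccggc
SNRNP25 and SF3B6 were higher in siTAF5 than in siNT.
SNRNP25 (chr16:53728-53837, plus strand): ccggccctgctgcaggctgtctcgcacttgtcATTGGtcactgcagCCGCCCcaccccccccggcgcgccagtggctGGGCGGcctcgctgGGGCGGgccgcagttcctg
SF3B6 (chr2:24076317-24076426, minus strand): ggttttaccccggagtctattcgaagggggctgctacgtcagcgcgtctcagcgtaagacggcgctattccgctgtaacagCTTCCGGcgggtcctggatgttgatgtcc
SF3B4 and LSM3 were higher in FL and in ΔE8 than in siTAF5.
SF3B4 (chr1:149927794-149927903, minus strand): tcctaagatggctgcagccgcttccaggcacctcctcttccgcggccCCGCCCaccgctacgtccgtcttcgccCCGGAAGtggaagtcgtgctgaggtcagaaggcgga
LSM3 (chr3:14178717-14178826, plus strand): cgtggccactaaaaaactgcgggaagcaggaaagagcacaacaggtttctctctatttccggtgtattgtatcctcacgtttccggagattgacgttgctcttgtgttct

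The 53 genes together took 0.918 to 0.928% of all counts in ΔE8, 0.965 to 0.973% in FL, 0.841 to 0.848% in siTAF5 and 0.859 to 0.86% in siNT. Their summed level was 9219, 9185 and 9206 CPM in ΔE8, 9854, 9798 and 9888 in FL, 8364, 8248 and 8322 in siTAF5, and 8663, 8618 and 8656 in siNT. The 4 groups did not overlap, with FL highest and siTAF5 lowest. A sum is weighted toward abundant members, and PRPF8 alone averaged 734 CPM in siTAF5 and 926 CPM in siNT. The median log2 change of the members in siTAF5 against siNT was -0.014. Taken gene by gene, 31 of the 53 had their highest mean in FL, and for 34 the ΔE8 mean lay between those of siTAF5 and FL. The shares of all genes with these orders were not computed, so nothing particular to the members is read from these counts. CPM is a share of each library, so these levels carry nothing on the amount of RNA per cell, and in these bulk samples fewer cells of a kind and less RNA per cell cannot be told apart.

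**Figure D1:**
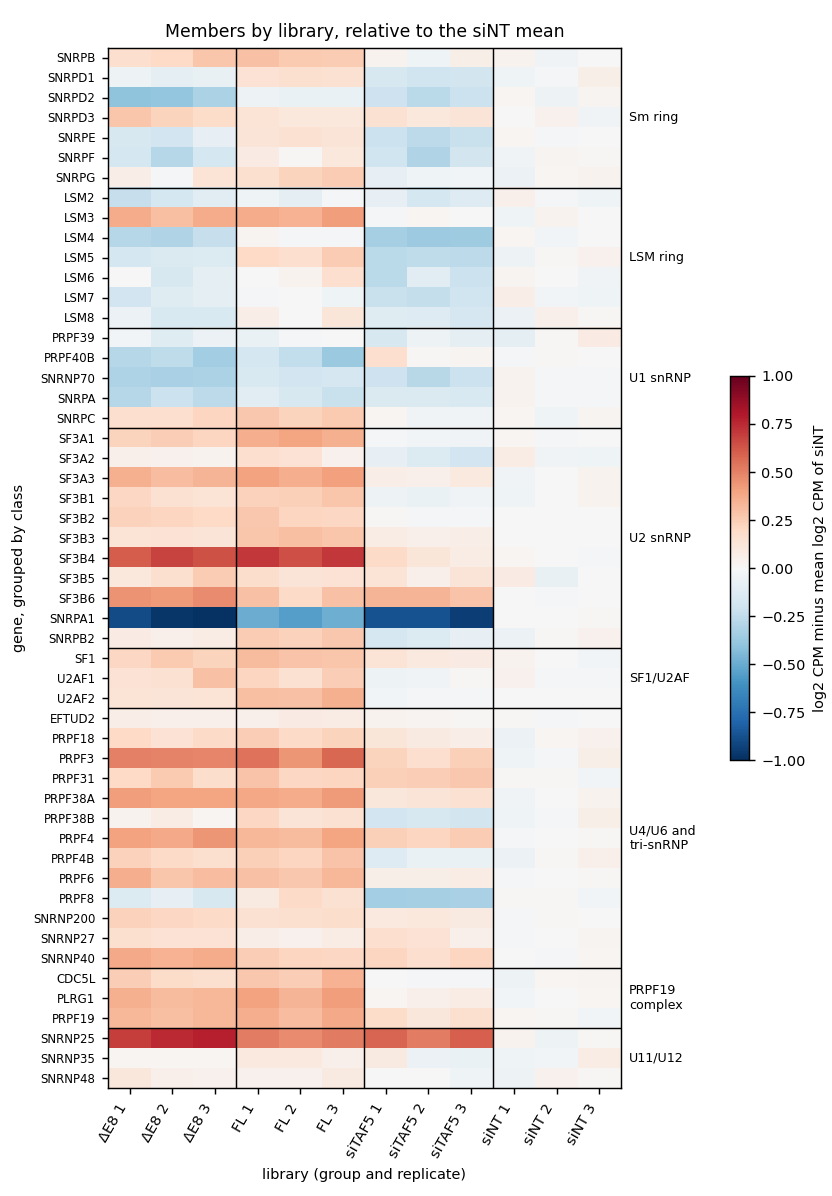
Level of the genes, with 1 of the 53 not shown, in each of the 12 libraries, as log2 CPM minus the mean log2 CPM of siNT, with genes grouped by the particle they belong to. SNRPA1 is the darkest blue row in ΔE8 and siTAF5, and SNRNP25 and SF3B4 are among the darkest red rows in ΔE8 and FL.

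The comparison of siTAF5 with siNT asks which members respond to loss of TAF5. Of the 53 genes, 17 were higher and 18 lower in siTAF5 (edgeR's quasi-likelihood test, Benjamini-Hochberg adjusted over 19424 genes, threshold 0.05). Over all genes 24.7% were higher and 25% lower. Among the 10072 genes within the members' range of average level 33% were higher and 32.3% lower, so the members' counts were near this background. The median log2 change was -0.014, beside 0 over all genes. Of the 14 ring proteins 10 were lower and 1 was higher, with a median of -0.189, whereas of the 39 members outside the rings 16 were higher and 8 lower, with a median of 0.024. The Sm and LSM rings were joined with the values known. The difference between ring and other members was not tested, here or in the comparisons below. Calls of PRPF4B, PRPF6, SF3A3, SF3B3, SF3B5 and SNRNP27 were lost in at least 1 of 19 alternatives, and the other 29 were kept in all.

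The Sm ring, which is loaded onto the snRNAs in the cytoplasm, had 4 of 7 genes lower. SNRPD2 was measured at 193.8, 186 and 192.8 CPM in siTAF5, against 227.7, 216.1 and 229 CPM in siNT. SNRPE was measured at 91.59, 88.89 and 91.29 CPM in siTAF5, against 107.9, 104.7 and 106.3 CPM in siNT. For both genes every siTAF5 library lay below the siNT libraries. The log2 changes were -0.23 ± 0.028 (SE) for SNRPD2 (adjusted p = 8.75e-07, edgeR) and -0.23 ± 0.028 for SNRPE (adjusted p = 1.14e-06, edgeR). SNRPF and SNRPD1 fell by 0.23 and 0.18 on the log2 scale, with adjusted p = 2.1e-05 and 1.33e-05. SNRPB and SNRPG were not called, at log2 changes of 0.02 and -0.05. SNRPD3 was called higher, at 0.13. Its value is uncertain, since 26046 bases are shared with an unnamed coding gene on the same strand (ENSG00000286070), which was called lower at -0.10.

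The LSM ring, which holds the 3′ end of U6, had 6 of 7 genes lower and 0 higher, with a median log2 change of -0.195. LSM4 (ENSG00000130520, hg38 chromosome 19, 18306236 to 18323112) was measured at 217.5, 213.6 and 214.9 CPM in siTAF5, against 277.8, 269.9 and 275.6 CPM in siNT. LSM5 was measured at 31, 31.28 and 31.12 CPM in siTAF5, against 36.04, 37.67 and 38.4 CPM in siNT. Every siTAF5 library lay below every siNT library for both. The log2 changes were -0.35 ± 0.024 for LSM4 (adjusted p = 4.7e-10, edgeR) and -0.26 ± 0.035 for LSM5 (adjusted p = 2.94e-06). LSM7, LSM6, LSM8 and LSM2 fell by 0.22, 0.20, 0.14 and 0.13 on the log2 scale. LSM3 had the same mean level in both groups, 77.2 ± 0.95 CPM in siTAF5 and 77.3 ± 2.29 CPM in siNT (SD, n = 3 each).

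In the U1 particle the call went to SNRNP70 and SNRPA, the proteins that bind stem-loops of U1 RNA. SNRNP70 was measured at 301.6, 287.2 and 299.9 CPM in siTAF5, against 356.1, 342.1 and 344.8 CPM in siNT, with no overlap and a log2 change of -0.23 ± 0.024 (adjusted p = 1.22e-07, edgeR). SNRPA fell by 0.15 on the log2 scale (adjusted p = 0.000223, edgeR), and C19orf54, which overlaps it on the other strand, fell by 0.20. SNRPC, the U1 protein that contacts the 5′ splice site, and the U1-associated PRPF39 and PRPF40B were not called.

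The U2 particle held the largest fall among the 53 genes, although 5 of the 11 genes in the U2 class were higher and 3 lower. SNRPA1 (ENSG00000131876, hg38 chromosome 15, 101281510 to 101295282), which anchors SNRPB2 to U2 RNA, was measured at 81.35, 81.44 and 77.69 CPM in siTAF5, against 148.7, 148.5 and 150.3 CPM in siNT. It was thus 1.86-fold lower, a log2 change of -0.90 ± 0.029 (adjusted p = 1.27e-14, edgeR), with a wide gap between the groups. Its partner SNRPB2 fell by 0.13 on the log2 scale (adjusted p = 0.00267). The gene PCSK6, which overlaps SNRPA1 on the same strand over 5499 bases, averaged 99.7 CPM in siTAF5 and 99.7 CPM in siNT.

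Of the SF3A and SF3B proteins, which clamp U2 onto the branch site, SF3A2 was lower at -0.14 (adjusted p = 0.00248, edgeR). SF3B6 (p14), which contacts the branch site, was measured at 71.89, 71.8 and 69.48 CPM in siTAF5, against 57.13, 56.35 and 57.17 CPM in siNT. The groups were far apart, and the log2 change was 0.32 ± 0.03 (adjusted p = 3.42e-08, edgeR). SF3B4, which binds pre-mRNA next to the branch site, was higher at 0.13 (adjusted p = 0.00155). The large scaffold SF3B1 was not called, at -0.05. Of the 3 proteins that mark the 3′ end of the intron before U2 arrives, SF1 was higher at 0.10 (adjusted p = 0.00118, edgeR), and U2AF1 and U2AF2 were not called, at -0.02 each.

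In the U4/U6 and tri-snRNP class 8 of 13 genes were higher and 3 lower. PRPF31, which stabilises the U4/U6 pair and is mutated in a form of retinitis pigmentosa, was measured at 76.73, 77.33 and 78.65 CPM in siTAF5, against 65.65, 65.76 and 64.03 CPM in siNT. PRPF4 was measured at 75.39, 74.16 and 76.02 CPM in siTAF5, against 62.91, 64.12 and 64.54 CPM in siNT. Neither gene overlapped between groups, and the log2 changes were 0.25 ± 0.03 for PRPF31 (adjusted p = 7.4e-07, edgeR) and 0.24 ± 0.029 for PRPF4 (adjusted p = 9.71e-07). PRPF3, the U4/U6 partner of PRPF4, was higher at 0.21 ± 0.037 (adjusted p = 7.64e-05). SNRNP40, a U5 protein, was measured at 120.1, 116.6 and 120.1 CPM in siTAF5, against 103.4, 102.6 and 104.8 CPM in siNT, a log2 change of 0.20 ± 0.024 (adjusted p = 1.15e-06, edgeR). SNRNP200, the helicase that unwinds U4 from U6, was higher at 0.10.

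PRPF8 (ENSG00000174231, hg38 chromosome 17, 1650629 to 1684867), the large U5 scaffold around the catalytic centre, went the other way. It was measured at 730.6, 733.9 and 737.5 CPM in siTAF5, against 933.9, 932.8 and 910.2 CPM in siNT. The groups were separate, and the log2 change was -0.33 ± 0.026 (adjusted p = 2.16e-09, edgeR). PRPF38B, a splicing factor that resembles PRPF38A, fell by 0.18, while PRPF38A was higher at 0.13. EFTUD2, the U5 GTPase that binds PRPF8, was not called, at 0.02.

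The largest rise was in the minor spliceosome. SNRNP25 (ENSG00000161981, hg38 chromosome 16, 53828 to 57669), a U11 protein, was measured at 54.42, 51.96 and 55 CPM in siTAF5, against 37.28, 35.14 and 36.69 CPM in siNT. It was 1.48-fold higher, a log2 change of 0.56 ± 0.035 (adjusted p = 7.76e-11, edgeR), with separate groups. The other U11 proteins SNRNP35 and SNRNP48 were not called, at -0.01 each. In the complex around PRPF19, a ubiquitin ligase needed for activation of the spliceosome, PRPF19 was higher at 0.15 (adjusted p = 4.54e-05, edgeR), and CDC5L and PLRG1 were not called.

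**Figure D2:**
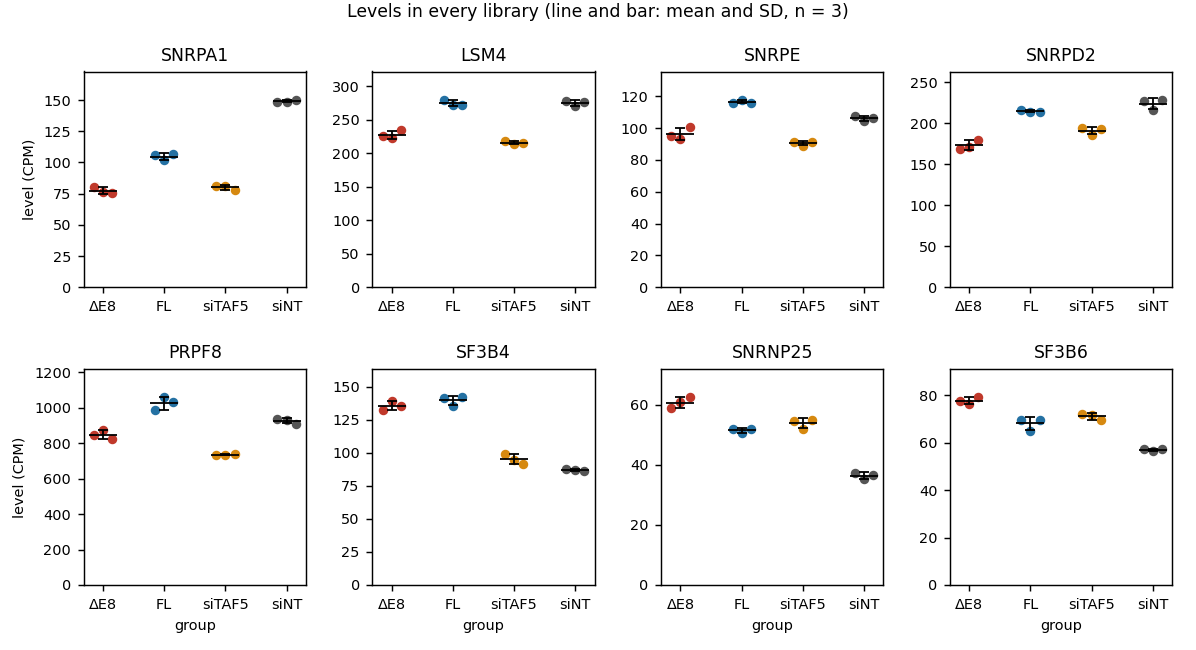
Level in CPM of 8 members in every library of the 4 groups, with lines and bars for mean and SD (n = 3). SNRPA1, LSM4, SNRPE and PRPF8 are lower in ΔE8 and siTAF5 than in FL and siNT, except that FL stays below siNT for SNRPA1, and SNRNP25 and SF3B6 are highest in ΔE8.

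The comparison of FL with siTAF5 asks what full-length TAF5 changed in depleted cells. Of the 53 members 39 were higher in FL, 1 was lower and 13 were not called (24.4% higher and 24.4% lower over all genes, 37.1% and 28.9% over genes in the members' range of level, edgeR). The median log2 change was 0.233, beside -0.005 over all genes. All 3 genes of the PRPF19 complex and all 3 proteins that mark the 3′ end of the intron were higher, as were 12 of the 14 ring proteins, 9 of 11 genes in the U2 class and 9 of 13 in the tri-snRNP class. The 3 U11 proteins had 0 calls.

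SF3B4 (ENSG00000143368, hg38 chromosome 1, 149923317 to 149927803) was measured at 141.9, 135.9 and 142.1 CPM in FL, against 99.44, 94.55 and 91.81 CPM in siTAF5. It was 1.47-fold higher, a log2 change of 0.56 ± 0.031 (adjusted p = 1.62e-11, edgeR). PRPF8 was measured at 984.8, 1058 and 1031 CPM in FL, against 730.6, 733.9 and 737.5 CPM in siTAF5. Both genes were well above every siTAF5 library in every FL library, and the PRPF8 log2 change was 0.48 ± 0.026 (adjusted p = 1.37e-11, edgeR). LSM5 was measured at 42.91, 42.08 and 44.59 CPM in FL, against 31, 31.28 and 31.12 CPM in siTAF5, a log2 change of 0.47 ± 0.035 (adjusted p = 1.13e-09, edgeR).

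SF3A1, the largest SF3A subunit, was measured at 381.4, 389 and 380.4 CPM in FL, against 292.9, 290.6 and 290.2 CPM in siTAF5. LSM3 was measured at 99.99, 98.08 and 103.4 CPM in FL, against 76.47, 78.29 and 76.92 CPM in siTAF5. SNRPA1 was measured at 105.8, 101.6 and 106.4 CPM in FL, against 81.35, 81.44 and 77.69 CPM in siTAF5. None of these 3 genes overlapped between the groups, with log2 changes of 0.40 for SF3A1, 0.38 for LSM3 and 0.38 for SNRPA1 and adjusted p = 1.17e-11, 2.46e-09 and 2.03e-09 (edgeR). U2AF2, which reads the polypyrimidine tract, was higher at 0.34, PLRG1 at 0.34, SF3A3 at 0.32, CDC5L at 0.30 and SF3B1 at 0.30. The exception was PRPF40B, a U1-associated protein, with 13.85, 13.16 and 12.09 CPM in FL, against 17.52, 15.78 and 15.9 CPM in siTAF5. Its groups did not overlap, and it fell by 0.32 on the log2 scale (adjusted p = 7.13e-05, edgeR). FMNL3, which shares 8168 bases with PRPF40B on the other strand, averaged 21.6 CPM in FL and 28.5 CPM in siTAF5, a log2 change of -0.40 (adjusted p = 5.95e-07), so the PRPF40B value is uncertain. Among members higher in siTAF5 than in siNT, SNRNP25 at -0.06, SF3B6 at -0.06, PRPF31 at -0.01 and SNRNP40 at 0.03 were not called in FL against siTAF5. The siTAF5 libraries enter both comparisons, so these values are given side by side only.

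**Figure D3:**
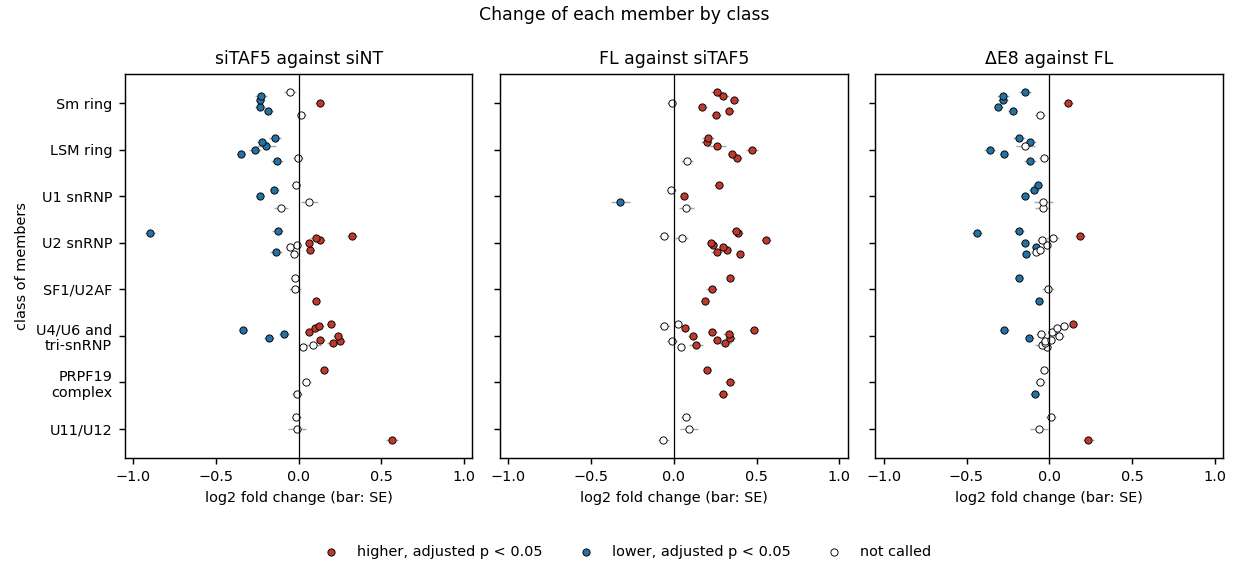
Log2 fold change of each member, with 1 of the 53 not shown, and its SE in 3 comparisons, in rows of points by class. In siTAF5 against siNT the ring proteins lie mostly left of 0 and the tri-snRNP proteins mostly right, in FL against siTAF5 most points lie right of 0, and in ΔE8 against FL the ring proteins again lie mostly left.

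The comparison of ΔE8 with siTAF5 asks the same of TAF5 that lacks exon 8. Of the 53 genes 36 were higher and 4 lower (20% and 20.6% of all genes, 32.9% and 24.7% of genes in the members' range of level, edgeR), and the median log2 change was 0.127, beside -0.011 over all genes. Of the 14 ring proteins 8 were higher with a median of 0.093, and of the other 39 members 28 were higher with a median of 0.172. The ring calls of LSM4, LSM5, SNRPE and SNRPG were each lost in some alternatives, and the difference between ring and other members was not tested. SF3B4 led again, with 132.4, 139.2 and 135.5 CPM in ΔE8, against 99.44, 94.55 and 91.81 CPM in siTAF5, a log2 change of 0.51 ± 0.03 (adjusted p = 4.44e-10, edgeR). LSM3 was measured at 99.89, 95.2 and 99.73 CPM in ΔE8, against 76.47, 78.29 and 76.92 CPM in siTAF5, a log2 change of 0.35 ± 0.03 (adjusted p = 3.34e-08, edgeR). Neither gene overlapped between the groups.

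PRPF3 was measured at 63.05, 62.65 and 62.08 CPM in ΔE8, against 51.8, 49.9 and 52.44 CPM in siTAF5, a log2 change of 0.29 (adjusted p = 3.17e-06, edgeR). PLRG1 was higher at 0.29, the kinase PRPF4B at 0.28 and PRPF38A at 0.27. SNRPA1, by contrast, had 80.31, 76.14 and 75.11 CPM in ΔE8, against 81.35, 81.44 and 77.69 CPM in siTAF5. Those libraries overlapped, and the log2 change of -0.05 ± 0.03 was not called (adjusted p = 0.185, edgeR). SNRPF was not called either, at 0.02.

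The members lower in ΔE8 than in siTAF5 were PRPF40B, SNRPD2, SNRPA and SNRNP70. PRPF40B had 12.8, 13.13 and 12.3 CPM in ΔE8, against 17.52, 15.78 and 15.9 CPM in siTAF5, and fell by 0.36 on the log2 scale (adjusted p = 3.42e-05, edgeR), where the overlapping FMNL3 fell by 0.14. SNRPD2 had 169.2, 171.7 and 179.9 CPM in ΔE8, against 193.8, 186 and 192.8 CPM in siTAF5, and fell by 0.14 (adjusted p = 0.000622, edgeR). Both were separate between the groups. SNRPA fell by 0.11 and SNRNP70 by 0.087 (adjusted p = 0.00482 and 0.00673, edgeR). The SNRNP70 call was lost without siTAF5 replicate 1, at -0.065 and adjusted p = 0.0635, and without siTAF5 replicate 3, at -0.07 and adjusted p = 0.05.

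The direct comparison of ΔE8 with FL addresses the part of TAF5 that exon 8 encodes. Of the 53 members 23 were lower in ΔE8, 4 were higher and 26 were not called (19.7% lower and 17.3% higher over all genes, 27.5% and 24.7% over genes in the members' range of level, edgeR), with a median log2 change of -0.058 beside -0.009 over all genes. With libraries scaled by their totals only, the split was 16 lower and 7 higher. Of the 14 ring proteins 10 were lower and 1 was higher, with a median of -0.166. Of the other 39 members 13 were lower and 3 higher, with a median of -0.046. Calls of CDC5L, LSM2, LSM7, SF1, SF3B1, SNRPA and SNRPC were lost in at least 1 of 19 alternatives. The other 20 were kept in all. TAF5 itself was 1.2-fold lower in ΔE8 than in FL, in counts per gene that are not corrected for the missing exon 8. The part of the TAF5 level in these differences was not tested.

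SNRPA1 again showed the largest fall, with 80.31, 76.14 and 75.11 CPM in ΔE8, against 105.8, 101.6 and 106.4 CPM in FL. It was 1.35-fold lower, a log2 change of -0.44 ± 0.03 (adjusted p = 1.15e-09, edgeR). LSM5 was measured at 33.03, 33.83 and 34.07 CPM in ΔE8, against 42.91, 42.08 and 44.59 CPM in FL. SNRPD2 was measured at 169.2, 171.7 and 179.9 CPM in ΔE8, against 216.5, 214.2 and 213.7 CPM in FL. For all 3 genes every ΔE8 library lay below every FL library. The log2 changes were -0.36 ± 0.035 for LSM5 (adjusted p = 1.1e-07, edgeR) and -0.31 ± 0.028 for SNRPD2 (adjusted p = 5.86e-08).

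SNRPE was measured at 95.31, 92.99 and 100.6 CPM in ΔE8, against 116, 117.9 and 116.1 CPM in FL. SNRPF was measured at 90.68, 84.26 and 90.9 CPM in ΔE8, against 108.3, 103.3 and 110.5 CPM in FL. LSM4 was measured at 225.4, 222.3 and 234 CPM in ΔE8, against 279.7, 271.5 and 271.5 CPM in FL. The groups were separate for all 3, with log2 changes of -0.28 for SNRPE, -0.28 for SNRPF and -0.27 for LSM4 and adjusted p = 2.23e-07, 4.44e-06 and 3.96e-08 (edgeR). PRPF8 was measured at 843.2, 876.3 and 826.1 CPM in ΔE8, against 984.8, 1058 and 1031 CPM in FL, and fell by 0.27 (adjusted p = 9.03e-08, edgeR). U2AF2 and SNRPB2 fell by 0.18 each, SF3B3 by 0.15 and SF3A1 by 0.14.

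The 4 higher members were SNRNP25, SF3B6, SNRNP40 and SNRPD3. SNRNP25 had 58.75, 60.89 and 62.39 CPM in ΔE8, against 51.83, 50.43 and 52.01 CPM in FL, a log2 change of 0.24 ± 0.034 (adjusted p = 1.4e-05, edgeR). SF3B6 had 77.54, 76.23 and 79.08 CPM in ΔE8, against 69.62, 65.09 and 69.55 CPM in FL, a log2 change of 0.19 ± 0.03 (adjusted p = 5.67e-05, edgeR). Both were above every FL library in every ΔE8 library. SNRNP40 was higher at 0.14 (adjusted p = 0.000102) and SNRPD3, with the overlap described above, at 0.11 (adjusted p = 0.00313). SF3B4, LSM3 and PRPF3 were not called, at -0.05 (SE 0.03), -0.03 (SE 0.03) and -0.02 (SE 0.036). A missed threshold does not show that these genes were equal in the groups.

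ΔE8 against FL and siTAF5 against siNT share no library, so their calls could be crossed. Of the 18 members lower in siTAF5, 15 were lower in ΔE8 than in FL and 0 were higher. That is 83.3%, beside 59.6% of the 4848 genes of all kinds that were lower in siTAF5. Of the 17 members higher in siTAF5, 4 were higher in ΔE8 than in FL and 2 lower. That is 23.5% higher, beside 53.2% of the 4802 such genes of all kinds. The 2 lower ones were SF3B3 and SF1, and each rests on a call that some alternatives lost. For SF3B3 it was the call in siTAF5 against siNT (adjusted p 0.000234 to 0.127 over 19 alternatives). For SF1 it was the call in ΔE8 against FL (0.0252 to 0.25). Of the 15 members lower in both, LSM2, LSM7 and SNRPA also rest on ΔE8 against FL calls that some alternatives lost. Those calls were lost in 5, 3 and 5 of the 19. Of the 18 members not called in siTAF5, 6 were lower in ΔE8 and 0 higher. That is 33.3% lower, beside 8.7% lower and 7.56% higher of the 9774 such genes of all kinds. The shares of genes of all kinds are not limited to the members' range of level, where more genes are called. They are therefore not matched for level. All shares in this paragraph are counts and were not tested.

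**Figure D4:**
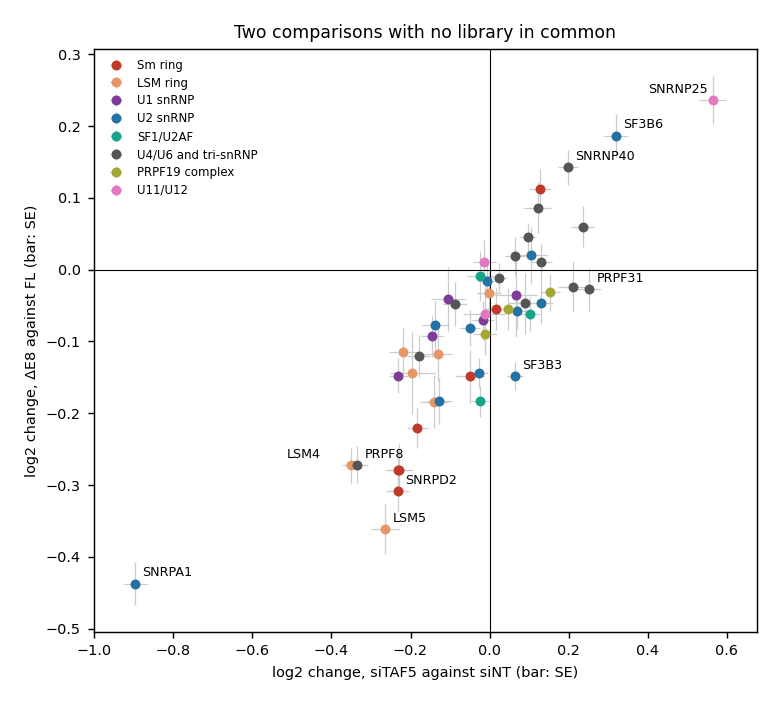
Log2 fold change of each member, with 1 of the 53 not shown, in siTAF5 against siNT (x axis) and in ΔE8 against FL (y axis), with SE bars and colours for classes; the comparisons share no library. SNRPA1 lies furthest to the lower left and SNRNP25 furthest to the upper right, and LSM and Sm ring proteins fill the lower left between them.

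Set against siNT, the FL libraries show how far cells with full-length TAF5 stood from control cells, with TAF5 2.63-fold above its siNT level. Of the 53 members 38 were higher and 4 lower (27.8% and 26.8% of all genes, 41% and 31.2% of genes in the members' range of level, edgeR), with a median log2 change of 0.208 beside 0.006 over all genes. SF3B4 had 141.9, 135.9 and 142.1 CPM in FL, against 88.06, 86.96 and 86.05 CPM in siNT, and was 1.61-fold higher (log2 change 0.69 ± 0.031, adjusted p = 1.75e-12, edgeR). PRPF3 had 64.77, 60.15 and 65.89 CPM in FL, against 43.15, 43.74 and 46.29 CPM in siNT, a log2 change of 0.52 ± 0.036 (adjusted p = 5.03e-10, edgeR). SNRNP25 was higher at 0.50, PRPF38A, SF3A3 and PLRG1 at 0.39 each. All of these were separate between FL and siNT.

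SNRPA1 stayed below control, with 105.8, 101.6 and 106.4 CPM in FL, against 148.7, 148.5 and 150.3 CPM in siNT, a log2 change of -0.51 ± 0.029 (adjusted p = 2.88e-11, edgeR). PRPF40B, SNRNP70 and SNRPA were the other lower members, at -0.26, -0.17 and -0.16 (adjusted p = 0.000583, 5.09e-06 and 6.82e-05). Of the ring proteins 7 were higher and 0 lower. LSM4 averaged 274 ± 4.74 CPM in FL and 274 ± 4.07 CPM in siNT (SD, n = 3 each).

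Between ΔE8 and siNT, 32 members were higher and 14 lower (30.8% and 31.4% of all genes, 42.1% and 35.8% of genes in the members' range of level, edgeR), with a median log2 change of 0.166 beside -0.001 over all genes. Of the 14 ring proteins 9 were lower and 3 higher, and of the other 39 members 29 were higher and 5 lower. SNRNP25 was 1.67-fold higher, with 58.75, 60.89 and 62.39 CPM in ΔE8, against 37.28, 35.14 and 36.69 CPM in siNT (log2 change 0.74 ± 0.034, adjusted p = 5.47e-13, edgeR). SF3B4 was higher at 0.64, PRPF3 at 0.50, SF3B6 at 0.45, PRPF4 at 0.41 and PRPF38A at 0.40. SNRPA1 was 1.93-fold lower, with 80.31, 76.14 and 75.11 CPM in ΔE8, against 148.7, 148.5 and 150.3 CPM in siNT (log2 change -0.95 ± 0.029, adjusted p = 2.43e-15, edgeR).

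SNRPD2 fell by 0.37, SNRNP70 by 0.32, PRPF40B by 0.29, LSM4 by 0.27 and SNRPA by 0.25 on the log2 scale in ΔE8 relative to siNT. The U1 class had 3 of 6 genes lower and 2 higher here. The tri-snRNP class had 11 of 13 higher with PRPF8 alone lower, at -0.13 (adjusted p = 0.000277, edgeR). Over all 6 comparisons SNRNP35 and PRPF39 were the 2 members never called. The U1-associated PRPF39 ran from 31.05 to 33.08 CPM in ΔE8, 32.23 to 33.68 in FL, 30.15 to 32.51 in siTAF5 and 31.59 to 35.6 in siNT.

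Coding length and promoter letters were not used by the name rule. In siTAF5 against siNT, the 25 members with a coding length under 1000 bases had 13 lower and 6 higher. The 28 longer members had 5 lower and 11 higher. Ring proteins are short, and all 14 of them, with 10 lower and 1 higher, are among the 25. The split by length therefore largely counts the rings again, and no relation to length apart from the rings is read from it. Among all protein-coding genes the shares lower were close to each other, 32.3% of shorter and 30.1% of longer genes. The shares higher were 26.6% of shorter and 27.5% of longer genes. In ΔE8 against FL the shorter members had 14 lower and 3 higher and the longer ones 9 lower and 1 higher. Of the shorter members' calls, the rings gave 10 lower and 1 higher. Among all protein-coding genes 26.3% of the shorter were lower and 18.1% higher, and 23.3% of the longer were lower and 20.8% higher. The length cut was chosen with the values known.

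Promoter letters were read from RefSeq windows of 250 bases before to 50 after the start, which 45 of the 53 members had. The ETS letters CCGGAAG were found in 21 of the 45 (46.7%), beside 15.6% of 13916 protein-coding promoters. Those promoters were not limited to tested genes or to the members' range of level. The shares here are therefore not matched for level. CCAAT was found in 21 (46.7%, beside 36.5%) and the GC box in 29 (64.4%, beside 63.3%). The YY1 letters AAGATGGCG were in 4 (8.89%, beside 3.05%) and the TATA box TATAAA in 1, SNRPC (2.22%, beside 7.88%). By the call in siTAF5 against siNT, with 15 promoters in each class, CCAAT was in 8 of the higher, 9 of the lower and 4 of the uncalled members. ETS letters were in 6 of the higher, 7 of the lower and 8 of the uncalled, and GC boxes in 12, 8 and 9. A match is a description of letters, not a bound site.

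Of 69 other genes that assemble or join these particles, all tested, 28 were higher and 19 lower in siTAF5 against siNT (40.6% and 27.5%, beside 24.7% and 25% of all genes). In FL against siTAF5 46 were higher and 2 lower (66.7% and 2.9%, beside 24.4% and 24.4%). In ΔE8 against siTAF5 50 were higher and 1 lower (72.5% and 1.45%, beside 20% and 20.6%). In ΔE8 against FL 10 were higher and 22 lower (14.5% and 31.9%, beside 17.3% and 19.7%). Of genes in the members' range of level, 33%, 37.1%, 32.9% and 24.7% were higher in these comparisons, in the same order. The shares lower were 32.3%, 28.9%, 24.7% and 27.5%. COIL, the scaffold of the Cajal bodies in which snRNPs mature, averaged 46.4 CPM in ΔE8, 61.2 in FL, 36.2 in siTAF5 and 49.6 in siNT. Its log2 changes were -0.45 in siTAF5 against siNT, 0.75 in FL against siTAF5 and -0.40 in ΔE8 against FL (adjusted p = 2.2e-09, 1.78e-12 and 2.06e-08, edgeR). SNUPN, which carries assembled snRNPs into the nucleus, was lower by 0.35 in siTAF5 against siNT and by 0.33 in ΔE8 against FL, where GEMIN8 of the SMN complex, which loads the Sm ring, fell by 0.25.

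BCAS2, a core component of the PRPF19 complex, averaged 81.2 CPM in ΔE8, 71.9 in FL, 61.1 in siTAF5 and 44.9 in siNT. Its log2 changes were 0.44 in siTAF5 against siNT, 0.18 in ΔE8 against FL and 0.85 in ΔE8 against siNT (adjusted p = 7.15e-09, 0.000617 and 2.11e-13, edgeR). The intron-binding helicase AQR and the cap-binding protein NCBP1 were also higher in siTAF5 than in siNT, at 0.38 and 0.35. The helicase DDX41 was higher in siTAF5 than in siNT at 0.22, lower in FL than in siTAF5 at -0.22 and higher in ΔE8 than in FL at 0.22 (adjusted p = 5.51e-06, 5.54e-06 and 1.22e-05, edgeR).

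Counting limits some members. The name patterns also matched 12 processed pseudogenes and 2 noncoding RNAs, which were left out. The most read of these, SNRPEP4, had 107 to 225 counts per library, and reads shared between a pseudogene and its parent could be split either way. SNRPA, SF3A2, PRPF31, PRPF38A, PRPF39, PRPF40B and SNRNP35 are among members that overlap a gene on the other strand, and whether reads were counted by strand is not known here, so their values are uncertain to that extent.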

How the data were processed

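Polyadenylated RNA of 12 HEK293 Flp-In libraries was measured, 3 in each of 4 groups taken from the sample titles. The authors deposited expected counts, estimated reads per gene without normalization, as the values show (46.5% were not whole). Tools named in the submitters' processing notes, with no roles, are STAR 2.7.0f, cutadapt 1.18, DESeq2 and Partek 10.0.23.0531, and the build is hg38. The counting tool, its annotation and its strand setting were not given in the sources used here. Values were rounded, which moved library totals by at most 91.27 counts, and the planned count test was kept. Totals were 41.8 to 62.5 M, and replicate pairs differed beyond counting error (chi-square per degree of freedom 2.6 to 5.14).

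The deposited table also gives a gene length, which was not used.

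Tools were R 4.3.3, DESeq2 1.42.0, limma 3.58.1 and edgeR 4.0.16. filterByExpr (minimum count 10) left 19424 genes, and scaling was by TMM, the trimmed mean of M values. All 12 libraries entered 1 quasi-likelihood fit with a mean per group, and each of 6 comparisons had a two-sided test, adjusted by Benjamini-Hochberg over all 19424 genes, with a threshold of 0.05. The SE of a log2 change is its size over the square root of F. Levels are CPM with TMM scaling. Gene positions are hg38 with 1 base taken from the table's stop, coding lengths are from the GENCODE annotation, and promoters are from RefSeq on GRCh38.p14.

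The members, classes, pathway lists and tests were chosen with earlier results of these data known. Per-library values were given for up to 6 called members each way with the largest log2 change in a comparison, or for members another result turns on, and values of other members are given by class. A single member counts in all totals and is not reported here by itself. Up to 3 called pathway genes each way could be named per comparison. Same-numbered libraries of different groups did not deviate together (correlations of -0.051 to 0.051 in 18 pairs), so the numbers were not used as a block. Alternatives were other scalings, no filter, only the groups compared, the replicate block, DESeq2 and each library left out.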

Additional observations from a re-analysis of the deposited data

Results flagged for a closer look

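SNRNP70 and SNRPD2 were called in opposite directions by the add-back comparisons, and the test of the difference itself is ΔE8 against FL. SNRPD2 had a log2 change of -0.14 in ΔE8 against siTAF5 and 0.17 in FL against siTAF5, and of -0.31 in ΔE8 against FL (adjusted p = 5.86e-08, edgeR), with every ΔE8 library below every FL library. SNRNP70 had a log2 change of -0.087 in ΔE8 against siTAF5 and 0.06 in FL against siTAF5, and of -0.15 in ΔE8 against FL (adjusted p = 6.44e-05, edgeR). The ΔE8 against FL call of SNRNP70 held in all 19 alternatives, whereas its adjusted p in FL against siTAF5 ran from 0.0202 to 0.656 over them.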

How the results depend on the processing

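Of 230 calls of members over the 6 comparisons, 202 were kept in all 19 alternatives, 28 were lost in at least 1, and 0 changed sign. Most of the 28 had small changes, such as PRPF6 in siTAF5 against siNT (adjusted p 0.0027 to 0.216), SNRNP200 in FL against siTAF5 (0.00109 to 0.41), LSM4 in ΔE8 against siTAF5 (0.00403 to 0.114) and SF1 in ΔE8 against FL (0.0252 to 0.25). The number lower in FL against siTAF5, 1 as reported, was 2 with upper-quartile factors and 4 with library totals only, and ran from 1 to 2 over single libraries left out, the 2 arising without siTAF5 replicate 3. The number higher in ΔE8 against FL, 4 as reported, was 7 with library totals only. The members' median in siTAF5 against siNT, -0.014 as reported, was 0.02 with library totals only, and ran from -0.035 to -0.005 with single libraries left out. The cause was not tested. With the replicate block, the counts higher and lower were 17 and 19 in siTAF5 against siNT, 39 and 1 in FL against siTAF5, 36 and 4 in ΔE8 against siTAF5, and 4 and 25 in ΔE8 against FL. The numbers mark no shared culture or day in the labels, so this pairing has no basis in the design.

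Left-out libraries moved the counts in siTAF5 against siNT between 12 and 17 higher and between 17 and 20 lower, and in ΔE8 against FL between 4 and 5 higher and between 19 and 24 lower. Errors were wider for members at low levels, with an SE of 0.0562 for PRPF40B at 13 CPM in FL and 0.0196 for SF3B3 at 566 CPM in FL, both in FL against siTAF5.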
